A study of Arabidopsis thaliana with 16 samples.

Results

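The nuclear auxin response of Arabidopsis thaliana is run by 3 small gene families, which were followed here in RNA-seq libraries of hypocotyls, the embryonic stems of seedlings. The 39 genes were listed by locus code: the 29 Aux/IAA repressors (IAA1 to IAA20 and IAA26 to IAA34), 5 auxin receptors (TIR1, AFB1, AFB2, AFB3 and AFB5), and the 5 activating auxin response factors ARF5, ARF6, ARF7, ARF8 and ARF19. AFB4, a further member of the receptor family, is not on this list. All 39 were found among the 33296 named genes of the count table, and 36 of them passed the filter on low counts that left 20505 genes for testing. IAA15 (AT1G80390), IAA31 (AT3G17600) and IAA33 (AT5G57420) did not pass: they had 5, 41 and 12 counts in all 16 libraries together, and are not among the tested genes below.

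Seedlings were 6 days old and had been kept on plates in long days, at 22 °C or at 28 °C for those 6 days. Col-0 was the wild type, brl3-2 a T-DNA insertion mutant in the brassinosteroid receptor gene BRL3, and BRL3ox a line carrying 35S:BRL3-GFP under the general 35S promoter. The pSUC2:BRL3;brl3-2 line was the mutant with BRL3-GFP driven by the SUC2 promoter of phloem companion cells. It is written pSUC2-BRL3 from here on, and the labels do not say how many independent transformants either transgenic line stands for. Each of the 8 combinations of genotype and temperature had 2 libraries, each from fresh hypocotyl tissue. The series' design text calls the replicates biological without describing their plates, so the p-values speak only of how far these libraries spread.

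Aux/IAA proteins sit on auxin response factors and keep their target genes silent by recruiting TOPLESS-type corepressors. Auxin joins the F-box proteins TIR1 and AFB to a short degron in the Aux/IAA protein, which is then ubiquitinated and degraded, and the freed response factors transcribe their targets. Many Aux/IAA genes are themselves such targets, so the family is both the brake on the auxin response and a common readout of it. In warm hypocotyls auxin made after induction of YUC8 by the transcription factor PIF4 is known to drive elongation.

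Total counts ran from 19014140 to 26564829 per library. The TMM factors, which bring counts to a common library size, were 0.736 to 0.897 at 22 °C and 1.16 to 1.27 at 28 °C. The sign of a small change with warmth therefore rests on this scaling. BRL3 (AT3G13380), which is mutated in brl3-2 and carried by both transgenes, followed the labels. Over the 4 libraries of each genotype its level in CPM (counts scaled to a common library size by TMM) was 0.531 to 1.04 in brl3-2, 10.5 to 28.8 in Col-0, 38.6 to 178 in pSUC2-BRL3 and 715 to 2478 in BRL3ox. It rose with warmth in both transgenic lines. Raw BRL3 counts in pSUC2-BRL3 were 1184 and 667 at 22 °C and 4974 and 5326 at 28 °C. In BRL3ox they were 13782 and 12989, then 63721 and 83363, and in Col-0 327 and 162, then 697 and 794. The part of this rise in the warmth and interaction results of the transgenic lines was not tested. The replicates of BRL3ox at 22 °C stood furthest apart, with 3283 of 20505 genes, and 10 of the 36 tested members, at least 2-fold different. This held for 177 to 885 genes and 0 to 4 members in the other 7 groups. The second BRL3ox library at 22 °C and the first pSUC2-BRL3 library at 28 °C are treated below as doubted, although in the latter pair it is not settled which replicate is odd. Among tissue markers, the summed level of 9 photosynthesis genes of leaf and cotyledon was 104961 to 148698 CPM at 22 °C and 30127 to 51624 CPM at 28 °C. With warmth 8 of these 9 were called lower in Col-0 and all 9 in each other genotype. Over the mean of the 4 genotypes 1 of the 7 phloem genes was called higher and 2 lower with warmth, and their sum was 307 to 423 CPM at 22 °C and 251 to 328 CPM at 28 °C in turn. Of the 9 xylem genes, summing to 47.1 to 75.2 and 52.6 to 90.4 CPM, 4 were called higher and 0 lower. The 9 root genes, of which 4 passed the filter, summed to 95.4 to 108 CPM in Col-0 at 22 °C, 49.4 to 68.0 CPM in the other genotypes at 22 °C and 62.0 to 69.9 CPM at 28 °C over all genotypes. At 22 °C that sum moved with SCR, at 1274 and 932 raw counts in Col-0 and 514 to 757 in the other genotypes. COBL9, RHD6, EXPA7, PLT1, PLT2 and NRT2.1 had 0 to 14 counts in any library. The 11 genes of shoot apex and stomatal lineage summed to 68.8 to 97.2 and 96.2 to 119.7 CPM, a sum that moved with KNAT1 (17.7 to 44.5 and 54.4 to 80.9 CPM). Of the 9 tested, STM and KNAT1 were called higher over the mean of genotypes and 6 lower, with a median log2 change of -0.90. The 10 clock genes summed to 677 to 1376 and 385 to 650.3 CPM, a sum that moved with CCA1 and LHY, which fell. The other clock genes went the other way: 6 of the 10 were called higher, and the median log2 change was 1.01. Over the mean of the 4 genotypes 35.9% of all genes were called higher and 33.5% lower. The phloem calls lie below both shares. Within single genotypes 19.3% to 23.3% of all genes were called lower. The doubted libraries stood apart in single clock genes, with PRR5 at 0.363 and 10.7 CPM in BRL3ox at 22 °C and FKF1 at 12.9 and 1.34 CPM in pSUC2-BRL3 at 28 °C, replicate 1 first. The part of these markers in the results below was not tested, and in whole-tissue RNA fewer cells of a type cannot be told apart from less RNA per cell.

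The degron is the part of a repressor that auxin and its receptor hold. Its core is the residue run glycine, tryptophan, proline, proline. An in-frame search for the codons of that run (GGNTGGCCNCCN) in the coding sequences of TAIR10.1 (RefSeq) found it once in each of 23 of the 29 Aux/IAA genes. The stretches below are shown for IAA6 and IAA19, whose warmth response differed by test between genotypes, IAA9 and IAA29, called higher with warmth in every genotype, and IAA28, called lower in 2 genotypes. Capitals mark the core codons, with 15 coding bases on either side. In IAA6 (chr1:19673317-19673358, minus strand), IAA19 (chr3:5264301-5264342, plus strand), IAA28 (chr5:9033806-9033847, plus strand) and IAA29 (chr4:15583936-15583977, plus strand) the stretch lies in a single exon, and in IAA9 it is spliced across an intron (chr5:26255003-26255139, plus strand).
IAA6 degron: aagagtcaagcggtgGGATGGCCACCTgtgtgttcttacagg
IAA19 degron: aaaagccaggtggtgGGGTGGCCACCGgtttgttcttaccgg
IAA28 degron: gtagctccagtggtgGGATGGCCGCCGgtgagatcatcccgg
IAA29 degron: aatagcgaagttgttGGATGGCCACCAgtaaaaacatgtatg
IAA9 degron: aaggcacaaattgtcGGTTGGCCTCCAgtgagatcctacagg
The 6 genes without a match were IAA20, IAA30, IAA31, IAA32, IAA33 and IAA34, the members of the family known to lack the canonical degron or to hold an altered form. All 6 were low in hypocotyls: the highest mean of any group among them was 3.94 CPM. Group means of the matched genes ran from 0 to 399 CPM. Of these IAA5, IAA10 and IAA15 also stayed below 3.94 CPM in every group. Of the 4 that passed the filter, 2 rose and 1 fell with warmth in at least 1 genotype, and of the 22 tested genes with the core 12 rose and 5 fell. Of all genes tested 37% rose and 34.7% fell in at least 1 genotype.

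Counted per length, IAA16, IAA7, IAA8 and IAA2 were the most abundant repressors of the cool Col-0 hypocotyl. In Col-0 at 22 °C the highest were IAA16 at 96.9 ± 16.8 CPM per kb of exon (mean ± SD, n = 2), IAA7 at 95.1 ± 19.4, IAA8 at 82.9 ± 2.74 and IAA2 at 72.6 ± 11.2 CPM per kb. Each mean differed from the next in that order by less than the larger of their 2 SDs. IAA7 (AXR2) and IAA17 (AXR3) are repressors known from dominant auxin-resistant mutants, and IAA17 followed at 72.6 ± 6.88 CPM per kb. At 28 °C the order opened with IAA2 at 204 ± 4.46, IAA16 at 196 ± 17.0 and IAA7 at 178 ± 11.6 CPM per kb, while IAA8 stood at 78.8 ± 0.708. The receptors were mid-range, led by TIR1 at 39.2 ± 1.56 CPM per kb at 22 °C and AFB5 at 30.2 ± 1.15, with AFB1 lowest at 4.88 ± 2.03. Of the activators ARF8 was highest at 22 °C, 19.0 ± 1.05 CPM per kb, and ARF6 highest at 28 °C, 14.7 ± 0.275 CPM per kb.

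**Figure D1:**
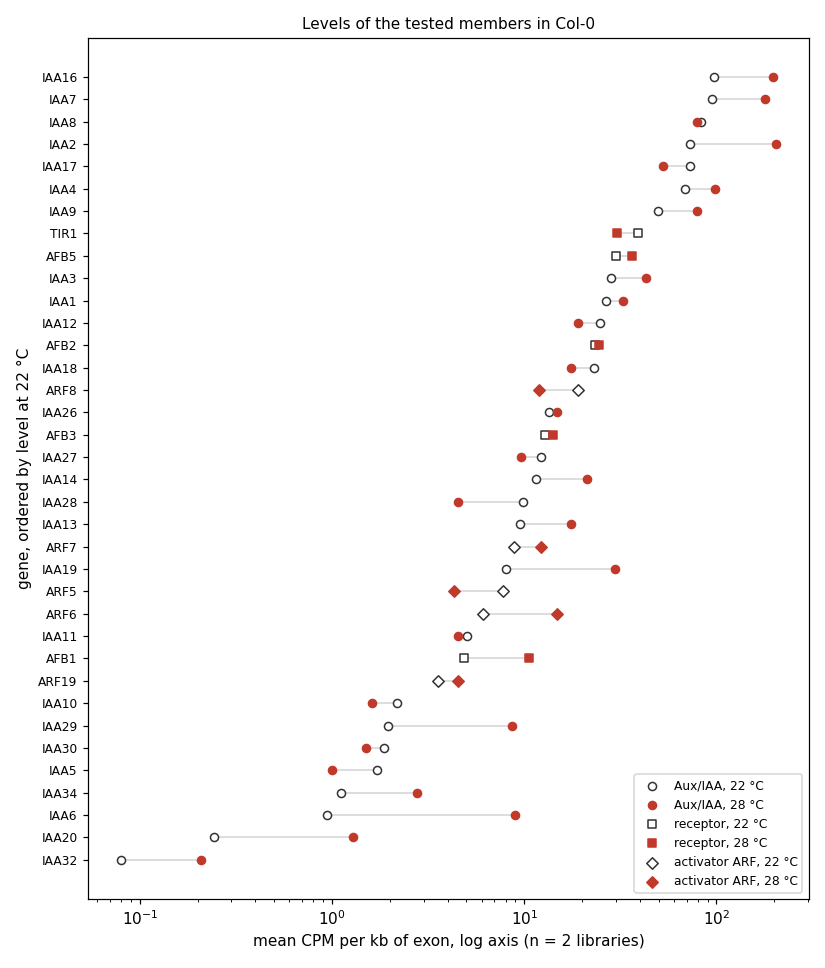
Mean level of each tested gene in Col-0 (n = 2 libraries) in CPM per kb of annotated exon on a log axis, open symbols at 22 °C and filled at 28 °C, with the shape giving the family. The genes run from IAA32 at the bottom to IAA16 at the top, and IAA6, IAA19, IAA20, IAA29 and IAA2 show the widest gaps between the temperatures.

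The 300 bases upstream of the annotated gene start are printed for IAA6 and IAA19, because their warmth response differed by test between pSUC2-BRL3 and Col-0, and for IAA29, called higher with warmth in all 4 genotypes. The G-box (CACGTG), bound by PIF and other bHLH factors, and the auxin response element TGTCTC, bound by response factors, were searched on both strands and are in capitals, and no printed match overlaps another. The windows are chr1:19673653-19673952 on the minus strand, chr3:5263701-5264000 on the plus strand and chr4:15583032-15583331 on the plus strand of TAIR10.1.
IAA6 promoter: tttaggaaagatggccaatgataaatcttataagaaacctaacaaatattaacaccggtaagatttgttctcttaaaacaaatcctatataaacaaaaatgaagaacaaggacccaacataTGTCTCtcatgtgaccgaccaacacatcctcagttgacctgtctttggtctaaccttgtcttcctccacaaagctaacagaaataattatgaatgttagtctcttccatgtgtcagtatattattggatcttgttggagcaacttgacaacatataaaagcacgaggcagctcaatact
IAA19 promoter: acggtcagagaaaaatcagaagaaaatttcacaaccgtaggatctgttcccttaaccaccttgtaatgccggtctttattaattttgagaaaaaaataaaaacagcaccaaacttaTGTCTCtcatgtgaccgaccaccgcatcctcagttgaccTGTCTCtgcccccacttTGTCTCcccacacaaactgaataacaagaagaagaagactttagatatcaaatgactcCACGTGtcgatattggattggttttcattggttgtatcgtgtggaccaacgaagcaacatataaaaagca
IAA29 promoter: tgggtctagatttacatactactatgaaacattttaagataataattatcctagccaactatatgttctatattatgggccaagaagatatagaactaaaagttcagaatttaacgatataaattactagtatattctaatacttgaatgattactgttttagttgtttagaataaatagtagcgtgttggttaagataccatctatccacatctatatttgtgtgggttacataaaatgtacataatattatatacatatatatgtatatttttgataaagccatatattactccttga
The IAA19 window holds 3 copies of TGTCTC and 1 G-box, the IAA6 window 1 TGTCTC, and the IAA29 window neither. IAA6 and IAA19 share an unbroken run of 23 bases, 181 and 186 bases before their starts, that contains a TGTCTC. Over the family TGTCTC occurred in 11 of 29 Aux/IAA windows and in 13.0% of all 27443 gene windows of that length, the G-box in 4 (IAA7, IAA19, IAA20 and IAA30) against 7.09%. The variant element TGTCGG was in 6 against 4.91%. Among the receptors AFB5 alone held TGTCTC, and ARF7 and ARF19 alone of the activators held TGTCGG. These matches are descriptions of letters in a window and not of bound sites.

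More of these genes were called higher than lower with warmth in Col-0, brl3-2 and BRL3ox. A gene was called when edgeR's quasi-likelihood test gave a Benjamini-Hochberg adjusted p below 0.05 over all genes tested. In Col-0 15 of 36 genes were called higher at 28 °C and 3 lower, against 21.7% and 23.3% of all genes tested, and the median log2 change of the 36 was 0.32 beside 0.02 for all genes. In brl3-2 12 were called higher and 3 lower (25.8% and 23.3% of all genes), with a median of 0.38 beside 0.04. BRL3ox had 11 called higher and 1 lower (18.3% and 19.3% of all genes), with a median of 0.36 beside -0.01. In pSUC2-BRL3 6 were called higher and 5 lower (19.6% and 19.5% of all genes), and the median was 0.06 beside 0.03. Over the mean of the 4 genotypes 18 were called higher and 7 lower (35.9% and 33.5% of all genes), with a median of 0.27 beside 0.03. Without the doubted libraries, an alternative chosen after seeing the data, 25 genes were called in either direction in Col-0 (59.4% of all genes), 22 in brl3-2 (62.6%), 11 in pSUC2-BRL3 (42.4%) and 13 in BRL3ox (47.6%), and 27 over the mean of the 4 (74.8%). Single libraries moved some counts by more than 1.5 times. In brl3-2 15 genes became 9 without replicate 2 at 22 °C (36.5% of all genes) and 8 without replicate 1 at 28 °C (35.1%). In pSUC2-BRL3 11 became 7 without replicate 1 at either temperature (27.2% and 24.3%). In BRL3ox 12 became 5 without either library at 28 °C (23.4% and 23.3%) and 20 without replicate 1 at 22 °C (45.9%). The libraries of the 2 temperatures did not overlap in 31 of the 36 genes in Col-0 and in brl3-2, 21 in pSUC2-BRL3 and 25 in BRL3ox, beside 80.0%, 82.1%, 74.6% and 61.0% of all genes tested.

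IAA9, IAA29 and ARF7 were called higher in all 4 genotypes. IAA2, IAA6, IAA13, IAA20 and ARF6 were called higher in 3 genotypes, and IAA4, IAA7, IAA14, IAA16, IAA19 and AFB5 in 2. These 3, 5 and 6 genes of 36 stand beside 8.47%, 6.99% and 8.97% of all genes with the same number of calls. IAA28, TIR1 and AFB2 were called lower in 2 genotypes, as were 6.71% of all genes. Of the 36 genes 0 were called in opposite directions in different genotypes, beside 1.22% of all genes. The 8 tested genes with no call in any genotype were IAA8, IAA10, IAA12, IAA26, IAA27, IAA32, AFB3 and ARF8, beside 29.5% of all genes without a call. Of the 15 genes higher in Col-0, 10 (66.7%) were also called higher in brl3-2, where they made up 83.3% of the list. Over all genes tested the same shares were 73.4% and 61.7%. With pSUC2-BRL3 the overlap was 5 genes, 33.3% of the Col-0 list and 83.3% of the other, beside 57.1% and 63.0% over all genes. With BRL3ox it was 9 genes, 60.0% and 81.8%, beside 50.3% and 59.5%. Of the 3 genes lower in Col-0, IAA28 (33.3%) was also called lower in brl3-2, where it was 1 of 3, and 0 were among the 5 lower in pSUC2-BRL3 or the 1 lower in BRL3ox. Over all genes 71.3%, 59.5% and 55.9% of the genes lower in Col-0 were called lower in these lines, 71.4%, 71.1% and 67.4% of the lines' own lists. The 4 warmth comparisons share no library with each other. Each overlap was taken against the same Col-0 list, and all come from a fit with a shared estimate of spread, so the overlaps are not independent.

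**Figure D2:**
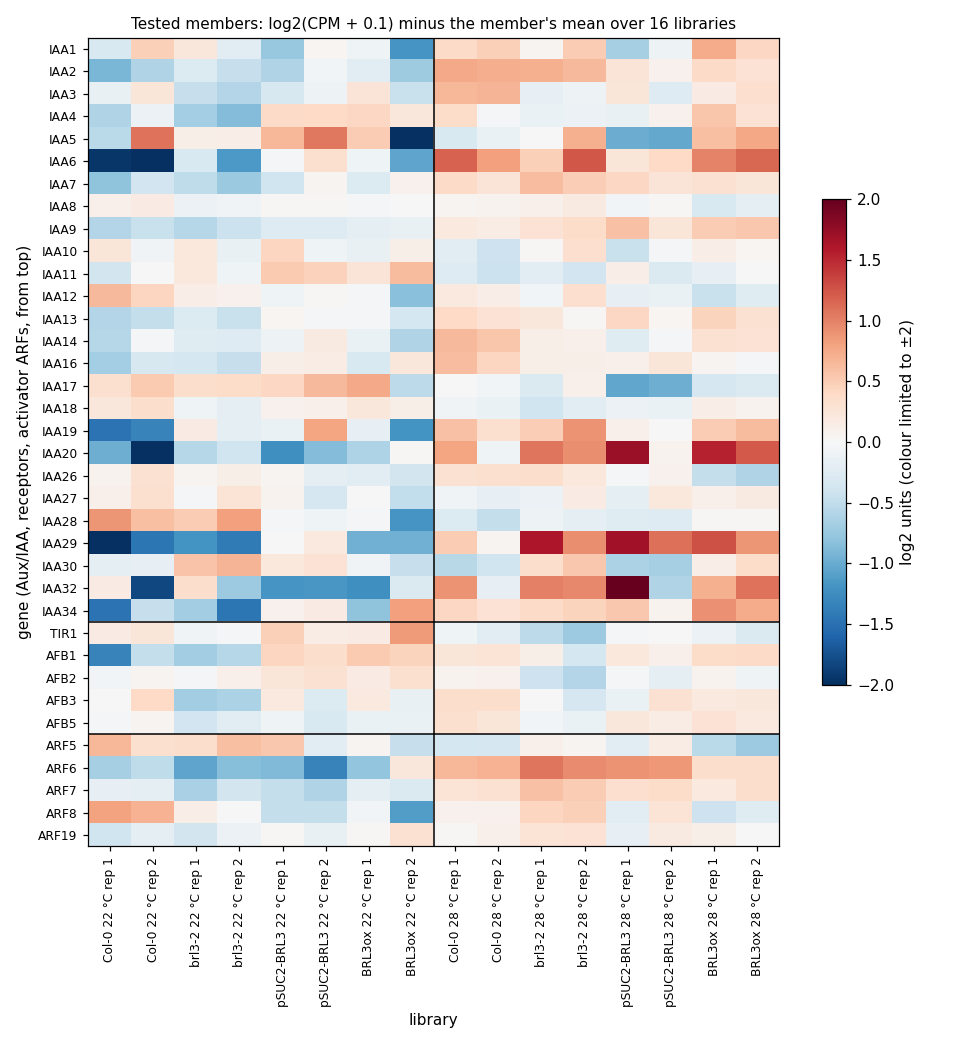
Each row is a tested gene and each column a library, with colour giving log2(CPM + 0.1) minus the gene's mean over the 16 libraries, and lines separating the families and the 2 temperatures. IAA2, IAA6, IAA9, IAA29, ARF6 and ARF7 turn from blue to red between 22 °C and 28 °C in Col-0 and brl3-2, and the 22 °C columns of pSUC2-BRL3 are paler than those of Col-0 for IAA6 and IAA19.

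Among the Aux/IAA repressors, IAA6, IAA29 and IAA20 had the largest rises called within a genotype, and IAA9 rose by nearly the same factor in all 4. The family had 12 genes called higher and 2 lower of 26 in Col-0 (46.2% and 7.69%, beside 21.7% and 23.3% of all genes). It had 9 and 1 in brl3-2 (34.6% and 3.85%, beside 25.8% and 23.3%). In BRL3ox it had 9 and 0 (34.6% and 0%, beside 18.3% and 19.3%). In pSUC2-BRL3 it had 3 and 4 (11.5% and 15.4%, beside 19.6% and 19.5%). Its median log2 changes were 0.56, 0.37, 0.52 and 0.00 in the same order. Levels below are given from the libraries at 22 °C (cool) to those at 28 °C (warm), with replicate 1 first. IAA29 (AT4G32280; chromosome 4, 15583332 to 15584903), a repressor known as a target of PIF4, went from 1.79 and 3.23 CPM to 12.9 and 9.38 CPM in Col-0. In brl3-2 IAA29 went from 3.90 and 3.33 CPM to 28.0 and 17.4 CPM. Every warm library of both genotypes exceeded every cool one, and the warm libraries of brl3-2 lay above those of Col-0. In pSUC2-BRL3 it went from 9.00 and 10.4 CPM to 29.2 and 19.4 CPM. In BRL3ox it went from 4.57 and 4.59 CPM to 21.9 and 16.8 CPM. The rise was 4.45-fold, log2 2.15, SE 0.34, adjusted p = 0.000503 in Col-0. It was 6.27-fold, log2 2.65, SE 0.32, adjusted p = 7.95e-05 in brl3-2. The transgenic lines had 2.51-fold, log2 1.33, SE 0.30, adjusted p = 0.00521 in pSUC2-BRL3 and 4.22-fold, log2 2.08, SE 0.32, adjusted p = 0.000574 in BRL3ox. The pSUC2-BRL3 call was lost without replicate 1 of pSUC2-BRL3 at 28 °C (log2 1.00, adjusted p = 0.0503), and that line began from the highest 22 °C level of the 4.

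IAA9 (AT5G65670; chromosome 5, 26253408 to 26256544), an abundant repressor, went from 101 and 111 CPM to 173 and 167 CPM in Col-0. In brl3-2 it went from 102 and 113 CPM to 186 and 196 CPM. In pSUC2-BRL3 it went from 126 and 126 CPM to 227 and 179 CPM. In BRL3ox it went from 134 and 137 CPM to 216 and 221 CPM. All 8 warm libraries exceeded all 8 cool ones, and replicates lay close together outside pSUC2-BRL3 at 28 °C. The log2 changes of IAA9 were 0.68, 0.83, 0.69 and 0.68 in Col-0, brl3-2, pSUC2-BRL3 and BRL3ox, with an SE of 0.13 each and adjusted p from 0.000327 to 0.00181. All 4 calls stood in each of the 16 fits that left out 1 library.

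IAA6 (AT1G52830, SHY1; chromosome 1, 19672476 to 19673652) had the largest change of any member in Col-0, from 0.896 and 0.712 CPM to 8.63 and 6.70 CPM (9.46-fold, log2 3.24, SE 0.43, adjusted p = 0.000188). In brl3-2 IAA6 went from 3.01 and 1.64 CPM to 5.22 and 8.97 CPM (3.05-fold, log2 1.61, SE 0.37, adjusted p = 0.00424). BRL3ox had IAA6 from 3.53 and 1.76 CPM to 7.51 and 8.41 CPM (2.98-fold, log2 1.57, SE 0.37, adjusted p = 0.00647). Warm and cool libraries did not overlap in these 3 genotypes, and the 3 calls stood in each fit that left out 1 library. In pSUC2-BRL3 its libraries were at 3.64 and 4.68 CPM in the cool and 4.46 and 4.99 CPM in the warm libraries (log2 0.18, SE 0.36, adjusted p = 0.709), and the 2 temperatures overlapped. IAA19 (AT3G15540, MSG2; chromosome 3, 5264001 to 5265695), a repressor required for bending of the hypocotyl, went from 7.76 and 8.54 CPM to 32.5 and 27.1 CPM in Col-0 (3.66-fold, log2 1.87, SE 0.34, adjusted p = 0.00133). In BRL3ox IAA19 went from 19.2 and 9.37 CPM to 30.9 and 33.6 CPM (2.24-fold, log2 1.17, SE 0.33, adjusted p = 0.0172). IAA19 was at 24.2 and 18.9 CPM in the cool and 30.6 and 40.5 CPM in the warm libraries in brl3-2 (log2 0.72, SE 0.33, adjusted p = 0.086). In pSUC2-BRL3 it was at 19.7 and 37.5 CPM in the cool and 23.3 and 21.8 CPM in the warm libraries (log2 -0.34, SE 0.32, adjusted p = 0.428), and neither line passed the threshold. In brl3-2 the warm libraries still lay above the cool ones, and in pSUC2-BRL3 they fell between the 2 cool libraries. The BRL3ox call of IAA19 was lost without replicate 2 of BRL3ox at 22 °C or either library of BRL3ox at 28 °C (log2 0.74 to 1.23, adjusted p = 0.0502 to 0.0764), and without the doubted libraries (log2 0.74, adjusted p = 0.0794).

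**Figure D3:**
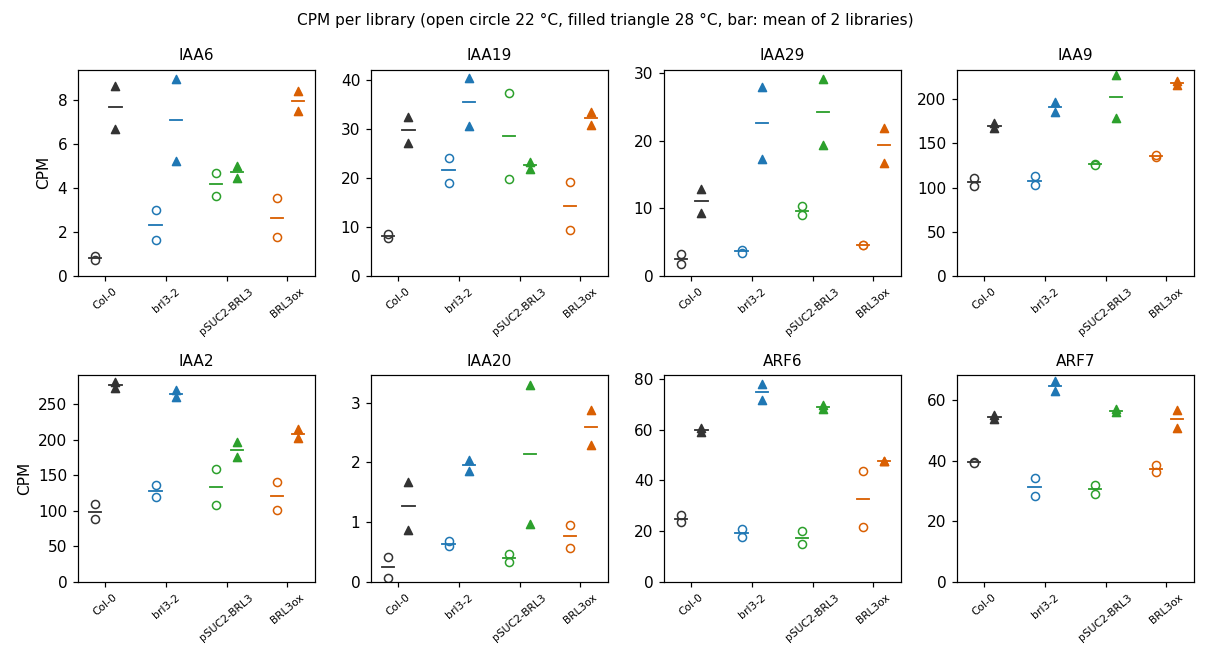
CPM in each library (open circles 22 °C, filled triangles 28 °C, bars the mean of 2 libraries) for IAA6, IAA19, IAA29, IAA9, IAA2, IAA20, ARF6 and ARF7 in the 4 genotypes, each panel with its own axis from 0. IAA9, IAA29 and ARF7 separate the 2 temperatures in all genotypes, and IAA6 and IAA19 do not in pSUC2-BRL3.

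IAA20 (AT2G46990), which lacks the degron core, was low throughout and went from 0.418 and 0.0647 CPM to 1.67 and 0.869 CPM in Col-0. In pSUC2-BRL3 it went from 0.336 and 0.463 CPM to 3.29 and 0.971 CPM. In BRL3ox it went from 0.571 and 0.943 CPM to 2.88 and 2.29 CPM. No cool library reached a warm library of its own genotype, and the warm replicates of pSUC2-BRL3 stood far apart. IAA20 was called in Col-0 (log2 2.35, SE 0.76, adjusted p = 0.025), pSUC2-BRL3 (log2 2.40, SE 0.67, adjusted p = 0.0145) and BRL3ox (log2 1.78, SE 0.61, adjusted p = 0.0375). The brl3-2 mutant, at 0.590 and 0.678 CPM in the cool and 2.04 and 1.85 CPM in the warm libraries, missed the threshold (log2 1.61, SE 0.63, adjusted p = 0.0505). IAA20 lost its Col-0 call without replicate 2 of Col-0 at 22 °C (log2 1.60, adjusted p = 0.156) or replicate 1 of Col-0 at 28 °C (log2 1.79, adjusted p = 0.14). The pSUC2-BRL3 call of IAA20 was lost without replicate 1 of pSUC2-BRL3 at 28 °C or either library of pSUC2-BRL3 at 22 °C (log2 1.27 to 2.65, adjusted p = 0.065 to 0.163). Its BRL3ox call was lost without replicate 1 of BRL3ox at 22 °C or either library of brl3-2 at 22 or 28 °C or BRL3ox at 28 °C (log2 1.45 to 1.89, adjusted p = 0.0516 to 0.141). In pSUC2-BRL3 IAA20 was also not called without the doubted libraries (log2 1.27, adjusted p = 0.116). IAA32 (AT2G01200), also without the core, was called over the mean of the 4 genotypes (log2 2.12, SE 0.62, adjusted p = 0.00846) although its levels stayed between 0 and 1.30 CPM, with 156 counts in all libraries. Its estimates within genotypes were not called: log2 1.32 in Col-0, 1.36 in brl3-2, 3.54 in pSUC2-BRL3 and 2.26 in BRL3ox, with SE from 1.07 to 1.38 and adjusted p from 0.0552 to 0.395. IAA34 (AT1G15050) was called in brl3-2, from 1.30 and 0.735 CPM to 2.85 and 2.97 CPM (log2 1.52, SE 0.50, adjusted p = 0.0259). It overlaps a neighbouring gene on its own strand, so its counts are uncertain. IAA34 lost that call without replicate 2 of brl3-2 at 22 °C or either library of brl3-2 at 28 °C (log2 1.16 to 1.52, adjusted p = 0.076 to 0.169).

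IAA2, IAA7 and IAA16, among the most abundant repressors, rose by smaller factors than IAA6 and IAA29. IAA7 (AT3G23050) went from 191 and 162 CPM to 415 and 384 CPM in brl3-2 (log2 1.18, SE 0.19, adjusted p = 0.00051). It went from 155 and 207 CPM to 355 and 324 CPM in Col-0 (log2 0.91, SE 0.19, adjusted p = 0.00303). IAA2 (AT3G23030) was called in Col-0 (2.80-fold, log2 1.49, SE 0.20, adjusted p = 0.000237), brl3-2 (log2 1.05) and BRL3ox (log2 0.79). IAA2 went from 87.9 to 141 CPM over their cool libraries to 202 to 281 CPM over their warm ones. Both genes separated the temperatures cleanly in these genotypes. IAA16 (AT3G04730) went from 172 and 220.2 CPM to 422 and 373 CPM in Col-0 (log2 1.02, SE 0.18, adjusted p = 0.000913). In brl3-2 IAA16 went from 216 and 201 CPM to 300.4 and 299 CPM (log2 0.52, SE 0.17, adjusted p = 0.027). IAA13 (AT2G33310) went from 20.4 and 21.9 CPM to 40.2 and 37.5 CPM in Col-0 (log2 0.88, SE 0.16, adjusted p = 0.00111). It was also called in brl3-2 (log2 0.49) and BRL3ox (log2 0.55). IAA4 (AT5G43700) was called in Col-0 (log2 0.52) and brl3-2 (log2 0.65), and IAA14 (AT4G14550, SLR, a repressor of lateral root initiation) in Col-0 (log2 0.89) and BRL3ox (log2 0.64). IAA3 (AT1G04240, SHY2) was called in Col-0 alone (log2 0.61) and IAA1 (AT4G14560) in BRL3ox alone (log2 1.12). Of the repressors without any call, IAA8 (AT2G22670) ran from 126 to 175 CPM over the 16 libraries, IAA10 (AT1G04100) from 1.92 to 3.58 CPM and IAA27 (AT4G29080) from 10.8 to 19.0 CPM.

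Several of these smaller rises lost their call when 1 library was left out. In such a fit the remaining library of that group is assumed to vary like the other groups. IAA16 lost its brl3-2 call without either library of brl3-2 at 22 or 28 °C (log2 0.47 to 0.58, adjusted p = 0.0747 to 0.126). IAA13 lost its brl3-2 call without replicate 2 of brl3-2 at 22 °C (log2 0.41, adjusted p = 0.126) or replicate 1 of brl3-2 at 28 °C (log2 0.37, adjusted p = 0.142). Its BRL3ox call was lost without replicate 2 of BRL3ox at 22 °C (log2 0.40, adjusted p = 0.063) or replicate 1 of BRL3ox at 28 °C (log2 0.48, adjusted p = 0.0949). IAA2 lost its BRL3ox call without replicate 1 of BRL3ox at 28 °C (log2 0.74, adjusted p = 0.0559). IAA4 lost its Col-0 call without replicate 1 of Col-0 at 22 °C, replicate 1 of Col-0 at 28 °C or either library of brl3-2 at 22 °C or pSUC2-BRL3 at 22 °C (log2 0.29 to 0.52, adjusted p = 0.0517 to 0.298). Its brl3-2 call was lost without replicate 2 of brl3-2 at 22 °C or either library of brl3-2 at 28 °C (log2 0.56 to 0.64, adjusted p = 0.0537 to 0.0919). IAA14 lost its BRL3ox call without replicate 2 of BRL3ox at 22 °C or either library of BRL3ox at 28 °C (log2 0.43 to 0.64, adjusted p = 0.0738 to 0.0853), and without the doubted libraries (log2 0.43, adjusted p = 0.0748). IAA3 lost its Col-0 call without replicate 1 of Col-0 at 22 °C, replicate 1 of BRL3ox at 28 °C or either library of Col-0 at 28 °C, brl3-2 at 22 °C or pSUC2-BRL3 at 22 °C (log2 0.43 to 0.62, adjusted p = 0.0552 to 0.256). IAA1 lost its BRL3ox call without replicate 2 of BRL3ox at 22 °C or either library of Col-0 at 28 °C, brl3-2 at 22 or 28 °C or BRL3ox at 28 °C (log2 0.68 to 1.24, adjusted p = 0.05 to 0.181), and without the doubted libraries (log2 0.68, adjusted p = 0.151). The calls of IAA2 and IAA7 in Col-0 and brl3-2 and those of IAA13, IAA14 and IAA16 in Col-0 stood in every such fit.

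The Aux/IAA repressors called lower with warmth in at least 1 genotype were IAA28, IAA17, IAA5, IAA30, IAA11 and IAA18. IAA28 (AT5G25890; chromosome 5, 9033204 to 9035140), a repressor of lateral root founder cells, fell from 15.0 and 12.4 CPM to 6.70 and 5.83 CPM in Col-0 (log2 -1.13, SE 0.28, adjusted p = 0.00694). In brl3-2 it fell from 11.6 and 14.5 CPM to 7.55 and 7.19 CPM (log2 -0.82, SE 0.28, adjusted p = 0.0278). IAA28 was at 7.94 and 7.63 CPM in the cool and 6.90 and 6.83 CPM in the warm libraries in pSUC2-BRL3. In BRL3ox it was at 8.04 and 3.52 CPM in the cool and 8.30 and 8.29 CPM in the warm libraries, and neither line had a call. The cool libraries of these 2 lines were already below those of Col-0 and brl3-2. IAA28 lost its Col-0 call without replicate 1 of Col-0 at 22 °C (log2 -0.98, adjusted p = 0.0533) or replicate 2 of Col-0 at 28 °C (log2 -1.03, adjusted p = 0.0559). Its brl3-2 call was lost without replicate 2 of brl3-2 at 22 °C or either library of brl3-2 at 28 °C (log2 -0.88 to -0.66, adjusted p = 0.0804 to 0.156). IAA17 (AT1G04250, AXR3) fell in pSUC2-BRL3 from 94.4 and 111 CPM to 34.7 and 35.9 CPM (log2 -1.54, SE 0.30, adjusted p = 0.00247). This call stood in each fit leaving out 1 library. In Col-0 IAA17 was at 89.1 and 102 CPM in the cool and 71.1 and 68.7 CPM in the warm libraries (log2 -0.45, SE 0.30, adjusted p = 0.235). Also called lower in pSUC2-BRL3 was IAA5 (AT1G15580), from 1.51 and 2.02 CPM to 0.412 and 0.402 CPM (log2 -2.10, SE 0.77, adjusted p = 0.0476). IAA30 (AT3G62100), a form without the degron core, fell there from 2.46 and 2.60 CPM to 1.34 and 1.31 CPM (log2 -0.93, SE 0.22, adjusted p = 0.0068). IAA11 (AT4G28640) fell from 10.5 and 10.1 CPM to 7.96 and 5.96 CPM (log2 -0.56, SE 0.20, adjusted p = 0.0462). IAA18 (AT1G51950), a repressor with a known role in embryo patterning, was called lower in Col-0 (log2 -0.40, from 39.2 and 42.8 CPM to 31.6 and 30.5 CPM). Raw IAA18 counts there were 656 and 661 in the cool and 963 and 842 in the warm libraries. Per total raw count, without TMM scaling, IAA18 was not lower in the warm libraries. On that scale warm and cool IAA11 libraries overlapped in pSUC2-BRL3.

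Of these decreases the call of IAA30 also stood in every fit leaving out 1 library. IAA18 lost its call without replicate 2 of Col-0 at 22 °C (log2 -0.33, adjusted p = 0.0729) or replicate 2 of Col-0 at 28 °C (log2 -0.37, adjusted p = 0.0695). IAA5 lost its call without either library of Col-0 at 28 °C, brl3-2 at 22 or 28 °C, pSUC2-BRL3 at 22 or 28 °C or BRL3ox at 28 °C (log2 -2.30 to -1.88, adjusted p = 0.057 to 0.175). IAA11 lost its call without replicate 2 of pSUC2-BRL3 at 28 °C or either library of Col-0 at 28 °C, brl3-2 at 22 or 28 °C, pSUC2-BRL3 at 22 °C or BRL3ox at 28 °C (log2 -0.60 to -0.36, adjusted p = 0.0514 to 0.263). IAA5 and IAA11 overlap an annotated gene on the opposite strand, as do 10 other members (IAA3, IAA9, IAA10, IAA13, IAA27, IAA32, AFB1, AFB3, ARF5 and ARF7). The strand setting of the counting is not known here, so their reads cannot be told apart from the partner's with certainty.

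**Figure D4:**
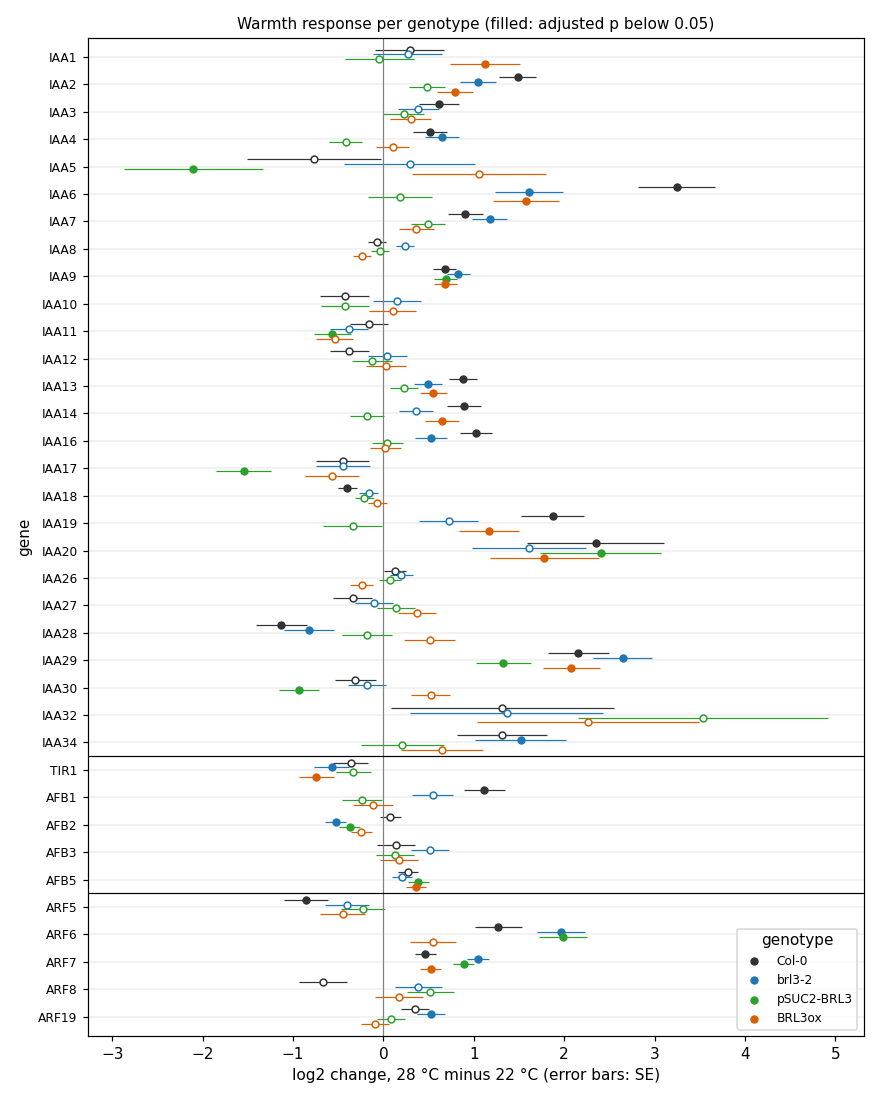
Log2 change from 22 °C to 28 °C of each tested gene in the 4 genotypes (points, with SE bars, filled where the adjusted p was below 0.05), grouped by family. Filled points of all 4 colours stand to the right of 0 for IAA9, IAA29 and ARF7, and the IAA6 points run from 0.18 in pSUC2-BRL3 to 3.24 in Col-0.

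TIR1 and AFB2 were called lower with warmth in 2 genotypes each, AFB5 higher in 2 and AFB1 higher in Col-0. Of the 5, 1 was called higher in Col-0, 2 were called lower in brl3-2, and 1 was called higher and 1 lower in pSUC2-BRL3 and in BRL3ox. A share of 1 in 5 is near that of all genes called in 1 direction, 18.3% to 25.8% over the 4 genotypes, and the 2 in 5 lower in brl3-2 stood beside 23.3%. TIR1 (AT3G62980; chromosome 3, 23273065 to 23276630), the founding auxin receptor, fell in brl3-2 from 86.0 and 88.2 CPM to 62.6 and 54.5 CPM (log2 -0.57, SE 0.19, adjusted p = 0.0297). It fell in BRL3ox from 101 and 162 CPM to 82.9 and 73.9 CPM (log2 -0.74, SE 0.19, adjusted p = 0.0117). Its levels were 101 and 107 CPM in the cool and 84.8 and 77.1 CPM in the warm libraries in Col-0, and 126 and 99.6 CPM in the cool and 87.7 and 90.7 CPM in the warm libraries in pSUC2-BRL3. On the TMM scale warm libraries were the lower ones in all 4 genotypes, without a call in Col-0 (log2 -0.36) or pSUC2-BRL3 (log2 -0.34). Raw TIR1 counts in Col-0 were 1691 and 1651 of 20325864 and 19014140 in the cool libraries. In the warm ones they were 2583 and 2130 of 26103535 and 23025147, so without that scaling TIR1 was not lower there. AFB2 (AT3G26810), its close relative, fell in brl3-2 from 62.0 and 68.2 CPM to 47.9 and 42.4 CPM (log2 -0.53, SE 0.12, adjusted p = 0.00333). It fell in pSUC2-BRL3 from 75.4 and 78.7 CPM to 63.0 and 56.0 CPM (log2 -0.37, SE 0.12, adjusted p = 0.0258). Col-0 held AFB2 at 61.5 and 65.9 CPM in the cool and 66.9 and 67.4 CPM in the warm libraries. Per total raw count, without TMM scaling, cool and warm libraries overlapped for TIR1 and AFB2 in brl3-2 and for TIR1 in BRL3ox. On that scale AFB2 was not lower in the warm libraries of pSUC2-BRL3. TIR1 lost its brl3-2 call without either library of brl3-2 at 22 or 28 °C (log2 -0.70 to -0.49, adjusted p = 0.0608 to 0.161). Its BRL3ox call was lost without replicate 2 of BRL3ox at 22 °C (log2 -0.36, adjusted p = 0.0627) or replicate 2 of BRL3ox at 28 °C (log2 -0.72, adjusted p = 0.0749), and also without the doubted libraries (log2 -0.36, adjusted p = 0.062). AFB2 kept its brl3-2 call in every such fit and lost that in pSUC2-BRL3 without replicate 2 of pSUC2-BRL3 at 28 °C or either library of pSUC2-BRL3 at 22 °C (log2 -0.40 to -0.28, adjusted p = 0.0669 to 0.162).

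AFB1 (AT4G03190), the receptor known for rapid auxin responses, rose in Col-0 from 8.00 and 14.7 CPM to 24.3 and 24.8 CPM (2.17-fold, log2 1.11, SE 0.23, adjusted p = 0.0025). That call stood in each fit leaving out 1 library. In the lines with a BRL3 transgene AFB1 was already high at 22 °C. It was at 27.4 and 26.0 CPM in the cool and 23.6 and 21.8 CPM in the warm libraries in pSUC2-BRL3. In BRL3ox it was at 29.5 and 27.7 CPM in the cool and 26.2 and 26.6 CPM in the warm libraries. No call was made in these 2 lines, nor in brl3-2, whose libraries were at 12.6 and 13.7 CPM in the cool and 22.2 and 16.1 CPM in the warm libraries. AFB5 (AT5G49980), a receptor with affinity for picloram-type auxins, rose in pSUC2-BRL3 from 70.7 and 60.7 CPM to 88.1 and 83.8 CPM (log2 0.39, SE 0.11, adjusted p = 0.0178). It rose in BRL3ox from 69.0 and 69.0 CPM to 91.6 and 85.8 CPM (log2 0.36, SE 0.11, adjusted p = 0.0249). AFB5 lost its pSUC2-BRL3 call without replicate 2 of pSUC2-BRL3 at 22 °C (log2 0.28, adjusted p = 0.149) or replicate 1 of pSUC2-BRL3 at 28 °C (log2 0.35, adjusted p = 0.087). Its BRL3ox call was lost without either library of brl3-2 at 28 °C or BRL3ox at 28 °C (log2 0.32 to 0.36, adjusted p = 0.058 to 0.133). AFB3 (AT1G12820) ran from 15.1 to 32.4 CPM over the 16 libraries and was called in no genotype.

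ARF7 rose with warmth in all 4 genotypes and ARF6 in 3, and ARF5 fell in Col-0. ARF6 (AT1G30330; chromosome 1, 10685822 to 10690988), an activator that promotes hypocotyl elongation together with PIF4 and BZR1, went from 23.4 and 26.2 CPM to 59.1 and 60.7 CPM in Col-0 (2.41-fold, log2 1.27, SE 0.26, adjusted p = 0.00233). In brl3-2 ARF6 went from 17.8 and 20.6 CPM to 78.3 and 71.6 CPM (3.90-fold, log2 1.96, SE 0.26, adjusted p = 0.000134). In pSUC2-BRL3 it went from 20.1 and 14.7 CPM to 69.8 and 68.1 CPM (3.96-fold, log2 1.98, SE 0.26, adjusted p = 0.000269). These are the largest changes of any activator, with replicates close together and calls that stood in each fit leaving out 1 library. In BRL3ox ARF6 was at 21.5 and 43.8 CPM in the cool and 47.7 and 47.6 CPM in the warm libraries (log2 0.55, SE 0.25, adjusted p = 0.109). Its second cool library, a doubted one, stood well above all other cool libraries. ARF7 (AT5G20730, NPH4; chromosome 5, 7016445 to 7022179), the activator of phototropic bending, went from 39.7 and 39.2 CPM to 53.7 and 54.9 CPM in Col-0. In brl3-2 it went from 28.3 and 34.4 CPM to 66.3 and 63.2 CPM. In pSUC2-BRL3 it went from 32.0 and 29.0 CPM to 55.9 and 57.0 CPM. In BRL3ox it went from 38.6 and 36.2 CPM to 50.8 and 56.7 CPM. All warm libraries exceeded all cool ones, with log2 changes of 0.46, 1.05, 0.89 and 0.52 and adjusted p from 4.48e-05 to 0.00764. ARF7 lost its BRL3ox call without replicate 2 of BRL3ox at 28 °C (log2 0.40, adjusted p = 0.0712).

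ARF5 (AT1G19850, MONOPTEROS), the activator of embryo and vascular patterning, fell in Col-0 from 31.6 and 24.7 CPM to 15.5 and 15.6 CPM (log2 -0.85, SE 0.24, adjusted p = 0.0149). The ARF5 call was lost without replicate 1 of Col-0 at 22 °C or either library of Col-0 at 28 °C (log2 -0.86 to -0.67, adjusted p = 0.0692 to 0.112). ARF19 (AT1G19220), the partner of ARF7 in root development, rose in brl3-2 from 14.5 and 17.2 CPM to 22.8 and 23.0 CPM (log2 0.53, SE 0.16, adjusted p = 0.0154). The ARF19 call was lost without replicate 1 of brl3-2 at 22 °C or either library of brl3-2 at 28 °C (log2 0.41 to 0.51, adjusted p = 0.0739 to 0.121). ARF19 overlaps a gene on its own strand, so part of its count may be shared. ARF8 (AT5G37020), the closest relative of ARF6, was called in no genotype: log2 -0.67 in Col-0, 0.39 in brl3-2, 0.52 in pSUC2-BRL3 and 0.17 in BRL3ox.

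At 22 °C pSUC2-BRL3 held IAA6, IAA29, IAA19 and AFB1 above and ARF8 below Col-0, BRL3ox held IAA6 and AFB1 above and ARF8 below it, and brl3-2 had no call. The means of brl3-2 still lay on the same side of Col-0. IAA19 was at 21.6 against 8.15 CPM in Col-0, IAA6 at 2.32 against 0.804 CPM and ARF8 at 42.6 against 68.3 CPM. IAA29 (3.61 against 2.51 CPM) and AFB1 (13.1 against 11.3 CPM) differed less. Against brl3-2, pSUC2-BRL3 had a call for IAA4 alone at 22 °C. pSUC2-BRL3 had 8 of 36 genes (22.2%) called against Col-0 at 22 °C, 7 higher and 1 lower, where 10.6% of all genes were called in either direction. It had 0 at 28 °C, where 0.858% were. At 28 °C edgeR's test gave 6 genes an unadjusted p below 0.05 (12.7% of all genes), and DESeq2 called 3 (3.35%). BRL3ox had 9 (25.0%) called at 22 °C, 5 higher and 4 lower, a share below the 30.2% of all genes called, and 1 at 28 °C, where 2.07% were. The brl3-2 mutant had 0 called at 22 °C, where 2.24% of all genes were, and 2 at 28 °C, where 3.62% were. For the comparison at 22 °C edgeR's test gave 11 genes an unadjusted p below 0.05 (18.6% of all genes), and DESeq2 called 4 (6.3%). These comparisons share the Col-0 libraries with each other and with the Col-0 warmth response, so a value of Col-0 enters all of them. Without the doubted libraries 16 genes were called in pSUC2-BRL3 against Col-0 at 22 °C (32.4% of all genes) and 2 at 28 °C (3.55%). BRL3ox then had 9 (17.4%) and 8 (17.1%), and brl3-2 7 (17%) and 9 (14.5%). Single libraries moved these counts too. The 8 calls of pSUC2-BRL3 at 22 °C became 0 without replicate 1 of Col-0 (0.454% of all genes) or replicate 2 of pSUC2-BRL3 (0.346%) at that temperature. They became 3 without replicate 2 of Col-0 (4.46%) or replicate 1 of pSUC2-BRL3 (2.31%), and 14 without either BRL3ox library at 22 °C (28.1%). The 9 of BRL3ox at 22 °C became 2 and 5 without replicates 1 and 2 of Col-0 (4.35% and 14.7%), and 20 without its own replicate 1 (51.6%). The 0 of brl3-2 at 22 °C became 7 without either BRL3ox library of that temperature (12.4%). At 28 °C the calls of brl3-2 and of BRL3ox became 0 without either Col-0 library or either library of the line itself at that temperature (0.21% to 1.53% of all genes for brl3-2, 0.156% to 0.283% for BRL3ox). Without either BRL3ox library at 22 °C they became 6 and 5 (10.3% and 11.3%), and the 0 of pSUC2-BRL3 became 4 (5.16% and 5.13%).

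Some listed tissue markers and clock genes were also called in the comparisons of lines with Col-0 at 22 °C. Of all genes 2.24% were called in either direction in brl3-2, 10.6% in pSUC2-BRL3 and 30.2% in BRL3ox. The 3 of 9 photosynthesis markers called in BRL3ox are near that line's share. Of the genes listed as root markers, SCR was called lower than in Col-0 in brl3-2, pSUC2-BRL3 and BRL3ox (log2 -0.79, -0.79 and -0.93). PHT1;4 was called lower in pSUC2-BRL3 and BRL3ox (log2 -1.33 and -1.82). The other 2 tested genes of that list were not called. SCR had 514 to 1274 counts per library, while COBL9, RHD6, EXPA7, PLT1, PLT2 and NRT2.1 had 0 to 14. A difference in root content was not tested. In BRL3ox 3 of 9 leaf photosynthesis markers were called higher at 22 °C, CAB1, LHCB2.1 and LHCA1 (log2 0.78, 0.99 and 0.94). The stomatal lineage gene FAMA was called higher (log2 0.66), and the phloem gene CALS7 (log2 -1.35) and the xylem gene VND6 (log2 -1.50) were called lower. In pSUC2-BRL3 CALS7 was called lower (log2 -0.91), while 0 of 9 photosynthesis markers were called and all 9 estimates were above 0 (log2 0.000751 to 0.75). In brl3-2 no marker of leaf, phloem, xylem or shoot apex and stomatal lineage was called. Of the 10 clock genes PRR9 was called lower in brl3-2 (log2 -1.56), PRR9 and GI lower in pSUC2-BRL3 (log2 -1.81 and -2.03), and in BRL3ox CCA1 lower (log2 -0.97) and PRR7 and LUX higher (log2 2.11 and 1.35). The part of these lists in the results was not tested.

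In pSUC2-BRL3 at 22 °C the genes called higher were IAA4, IAA6, IAA13, IAA16, IAA19, IAA29 and AFB1, and ARF8 was called lower. IAA6 was at 3.64 and 4.68 CPM against 0.896 and 0.712 CPM in Col-0 (log2 2.36, SE 0.44, adjusted p = 0.0103). IAA29 was at 9.00 and 10.4 CPM against 1.79 and 3.23 CPM (log2 1.95, SE 0.34, adjusted p = 0.00846). IAA19 was at 19.7 and 37.5 CPM against 7.76 and 8.54 CPM (log2 1.81, SE 0.35, adjusted p = 0.0109). For these genes pSUC2-BRL3 stood above Col-0 in both replicates, with IAA19 uneven between them. AFB1 was at 27.4 and 26.0 CPM against 8.00 and 14.7 CPM (log2 1.24, SE 0.23, adjusted p = 0.0103) and IAA4 at 153 and 155 CPM against 77.1 and 109 CPM (log2 0.73, SE 0.19, adjusted p = 0.033). IAA16 was at 299 and 306 CPM against 172 and 220.2 CPM (log2 0.63, SE 0.17, adjusted p = 0.0432). IAA13 was at 31.5 and 30.0 CPM against 20.4 and 21.9 CPM (log2 0.54, SE 0.16, adjusted p = 0.049). ARF8 was at 29.2 and 29.1 CPM against 70.9 and 65.6 CPM (log2 -1.23, SE 0.27, adjusted p = 0.0184). None of the 8 calls stood in all 16 fits that left out 1 library.

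IAA6 lost its call in this comparison without replicate 2 of pSUC2-BRL3 at 22 °C or either library of Col-0 at 22 °C (log2 2.17 to 2.54, adjusted p = 0.058 to 0.0934). IAA19 lost it without replicate 2 of pSUC2-BRL3 at 22 °C or either library of Col-0 at 22 °C (log2 1.28 to 1.88, adjusted p = 0.0515 to 0.108). IAA29 lost it without replicate 1 of Col-0 at 22 °C (log2 1.58, adjusted p = 0.094) or replicate 2 of pSUC2-BRL3 at 22 °C (log2 1.85, adjusted p = 0.0743). AFB1 lost it without replicate 1 of Col-0 at 22 °C or either library of pSUC2-BRL3 at 22 °C (log2 0.86 to 1.27, adjusted p = 0.0562 to 0.0798). IAA4 lost it without replicate 1 of Col-0 at 22 °C or either library of pSUC2-BRL3 at 22 °C (log2 0.50 to 0.74, adjusted p = 0.113 to 0.238). ARF8 lost it without either library of Col-0 at 22 °C or pSUC2-BRL3 at 22 °C (log2 -1.28 to -1.17, adjusted p = 0.0544 to 0.127). IAA13 lost it without either library of Col-0 at 22 or 28 °C, brl3-2 at 22 or 28 °C, pSUC2-BRL3 at 22 °C or BRL3ox at 28 °C (log2 0.49 to 0.59, adjusted p = 0.0517 to 0.251). IAA16 lost it without either library of Col-0 at 22 or 28 °C, brl3-2 at 22 or 28 °C, pSUC2-BRL3 at 22 °C or BRL3ox at 28 °C (log2 0.46 to 0.82, adjusted p = 0.056 to 0.286). The direction held in all of these fits.

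**Figure D5:**
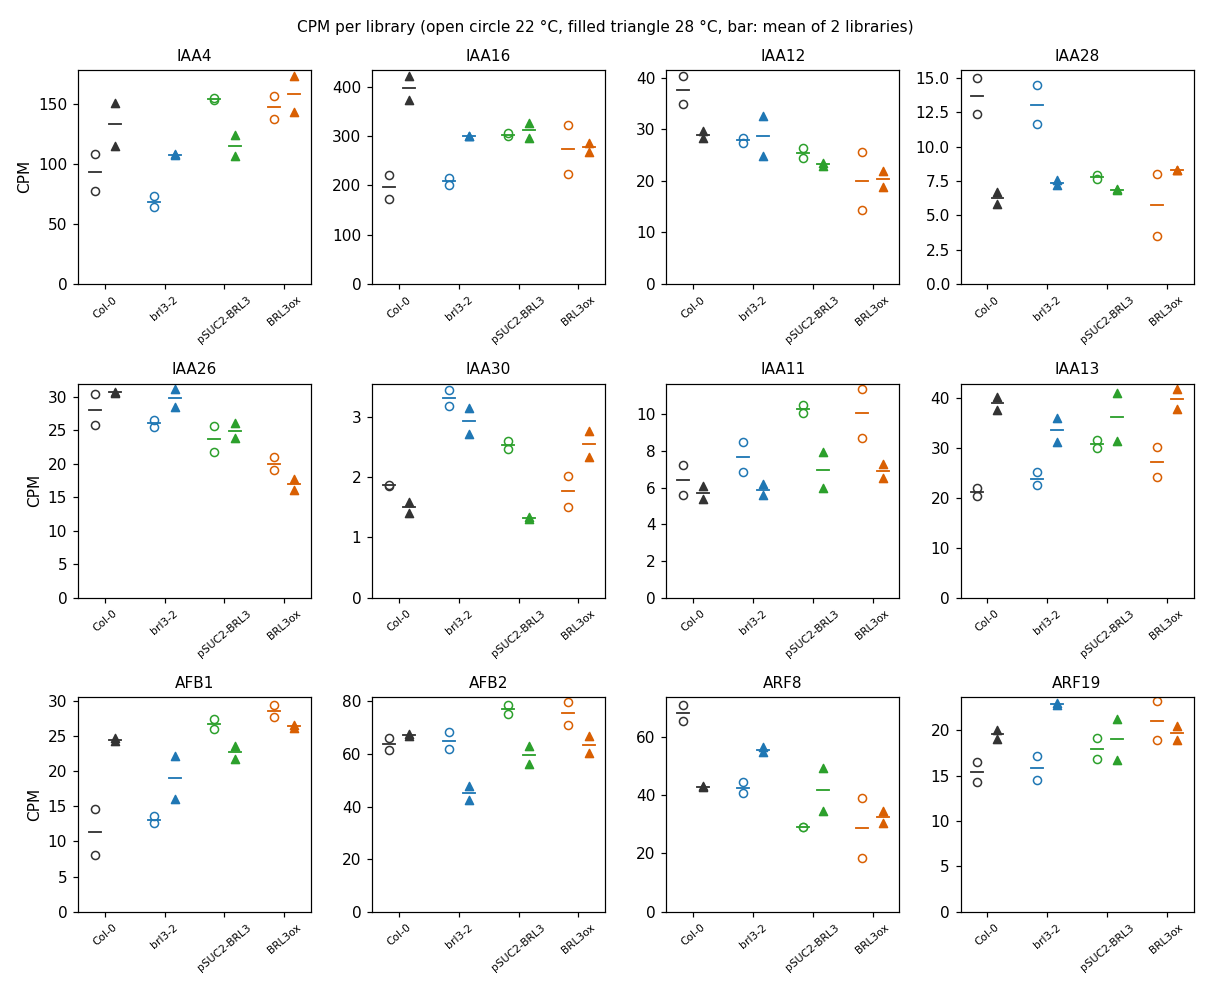
CPM in each library (open circles 22 °C, filled triangles 28 °C, bars the mean of 2 libraries) for 12 of the 15 genes called between lines, each panel with its own axis from 0. The other 3, IAA6, IAA19 and IAA29, are in the plot of warmth by library. At 22 °C AFB1 stands higher and ARF8 lower in pSUC2-BRL3 and BRL3ox than in Col-0.

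In BRL3ox at 22 °C the called genes split into 5 higher and 4 lower. AFB1 was at 29.5 and 27.7 CPM against 8.00 and 14.7 CPM in Col-0 (log2 1.34, SE 0.23, adjusted p = 0.00431). IAA6 was at 3.53 and 1.76 CPM against 0.896 and 0.712 CPM (log2 1.72, SE 0.45, adjusted p = 0.0172). IAA4 was at 157 and 138 CPM against 77.1 and 109 CPM (log2 0.67, SE 0.19, adjusted p = 0.0226). IAA11 was at 8.72 and 11.4 CPM against 5.61 and 7.25 CPM (log2 0.64, SE 0.21, adjusted p = 0.0387). ARF19 was at 19.0 and 23.2 CPM against 14.3 and 16.6 CPM (log2 0.45, SE 0.16, adjusted p = 0.0496). For these genes every BRL3ox library lay above every Col-0 library. On the lower side ARF8 was at 38.9 and 18.5 CPM against 70.9 and 65.6 CPM (log2 -1.25, SE 0.27, adjusted p = 0.0086). IAA28 was at 8.04 and 3.52 CPM against 15.0 and 12.4 CPM (log2 -1.23, SE 0.28, adjusted p = 0.011). IAA12 (AT1G04550, BODENLOS), the embryonic partner of ARF5, was at 25.5 and 14.3 CPM against 40.2 and 34.9 CPM (log2 -0.91, SE 0.22, adjusted p = 0.0134). IAA26 (AT3G16500) was at 21.0 and 19.1 CPM against 25.8 and 30.4 CPM (log2 -0.49, SE 0.13, adjusted p = 0.0171). In each of these 4 genes the doubted replicate 2 was the lower of the pair, and replicate 1 lay below both Col-0 libraries as well.

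AFB1 kept this call in every fit leaving out 1 library. ARF8 lost it without replicate 1 of Col-0 at 22 °C (log2 -1.19, adjusted p = 0.0607) and IAA12 without replicate 1 of Col-0 at 22 °C (log2 -0.81, adjusted p = 0.0887). IAA28 lost it without replicate 1 of Col-0 at 22 °C (log2 -1.08, adjusted p = 0.079) and IAA4 without replicate 1 of Col-0 at 22 °C (log2 0.44, adjusted p = 0.171). IAA26 lost it without replicate 2 of Col-0 at 22 °C (log2 -0.37, adjusted p = 0.111) or replicate 2 of BRL3ox at 22 °C (log2 -0.42, adjusted p = 0.071). IAA6 lost it without replicate 1 of BRL3ox at 22 °C or either library of Col-0 at 22 °C (log2 1.12 to 1.90, adjusted p = 0.0814 to 0.0878). IAA11 lost it without replicate 2 of BRL3ox at 22 °C, replicate 1 of BRL3ox at 28 °C or either library of Col-0 at 22 or 28 °C or pSUC2-BRL3 at 22 °C (log2 0.44 to 0.84, adjusted p = 0.0523 to 0.23). ARF19 lost it without replicate 2 of BRL3ox at 22 °C, replicate 1 of BRL3ox at 28 °C or either library of Col-0 at 22 or 28 °C, brl3-2 at 22 or 28 °C or pSUC2-BRL3 at 22 °C (log2 0.30 to 0.56, adjusted p = 0.0505 to 0.26). IAA11 was not called without the doubted libraries (log2 0.44, adjusted p = 0.16), nor was IAA26 without the doubted libraries (log2 -0.42, adjusted p = 0.0614). ARF19 too was not called without the doubted libraries (log2 0.30, adjusted p = 0.169). At 28 °C IAA26 was the gene called in BRL3ox, at 17.7 and 16.1 CPM against 30.5 and 30.8 CPM (log2 -0.86, SE 0.13, adjusted p = 0.00829). That call was lost without either library of Col-0 at 28 °C or BRL3ox at 28 °C (log2 -0.93 to -0.81, adjusted p = 0.0576 to 0.0895).

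In brl3-2 at 28 °C AFB2 was lower, at 47.9 and 42.4 CPM against 66.9 and 67.4 CPM in Col-0 (log2 -0.57, SE 0.12, adjusted p = 0.0236). IAA30 was higher, at 2.72 and 3.14 CPM against 1.41 and 1.59 CPM (log2 0.96, SE 0.21, adjusted p = 0.0325). AFB2 lost this call without either library of Col-0 at 28 °C or brl3-2 at 28 °C (log2 -0.69 to -0.51, adjusted p = 0.0583 to 0.265). IAA30 lost it without either library of Col-0 at 28 °C, brl3-2 at 22 or 28 °C or pSUC2-BRL3 at 22 °C (log2 0.84 to 1.05, adjusted p = 0.0503 to 0.312). pSUC2-BRL3 was also set against brl3-2, its own background: 1 of 36 genes was called at 22 °C, where 0.307% of all genes were, and 1 at 28 °C, where 1.61% were. The gene at 22 °C was IAA4, at 153 and 155 CPM against 73.0 and 64.3 CPM in brl3-2 (log2 1.17, SE 0.19, adjusted p = 0.0436). IAA30 was the gene at 28 °C, at 1.34 and 1.31 CPM against 2.72 and 3.14 CPM (log2 -1.15, SE 0.22, adjusted p = 0.0283). IAA4 lost its call without either library of Col-0 at 28 °C, brl3-2 at 22 or 28 °C, pSUC2-BRL3 at 22 °C or BRL3ox at 28 °C (log2 1.08 to 1.26, adjusted p = 0.0521 to 0.267). IAA30 lost its own without replicate 2 of pSUC2-BRL3 at 22 °C or either library of Col-0 at 28 °C, brl3-2 at 22 or 28 °C or pSUC2-BRL3 at 28 °C (log2 -1.22 to -1.02, adjusted p = 0.0501 to 0.327). Without the doubted libraries 9 genes were called at 22 °C (18.1% of all genes) and 3 at 28 °C (7.05%).

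IAA6 and IAA19 were called for a smaller response to warmth in pSUC2-BRL3 than in Col-0. The interaction test called 2 of 36 genes, both lower, where 1.95% of all genes were called in either direction. An unadjusted p below 0.05 was given to 13 genes by edgeR (19% of all genes), and DESeq2 called 8 (6.14%). For IAA6 the log2 change was 0.18 in pSUC2-BRL3 and 3.24 in Col-0, a difference of -3.06 (SE 0.56, adjusted p = 0.0253). For IAA19 it was -0.34 and 1.87, a difference of -2.21 (SE 0.47, adjusted p = 0.0424). Both genes started higher in the phloem line at 22 °C and stood lower than in Col-0 at 28 °C, the latter without a call. The change was also below that of Col-0 in brl3-2 and BRL3ox, at log2 1.61 and 1.57 for IAA6 and 0.72 and 1.17 for IAA19. Those differences were not called. Col-0 had the lowest 22 °C mean of both genes. For IAA6 it was 0.804 CPM, beside 2.32 in brl3-2, 4.16 in pSUC2-BRL3 and 2.64 in BRL3ox. The warmth response of pSUC2-BRL3 was not tested against that of brl3-2. IAA6 lost the call without replicate 1 of pSUC2-BRL3 at 28 °C or either library of Col-0 at 22 or 28 °C or pSUC2-BRL3 at 22 °C (log2 -3.24 to -2.86, adjusted p = 0.0663 to 0.122). IAA19 lost it without replicate 2 of pSUC2-BRL3 at 22 °C or either library of Col-0 at 22 or 28 °C, brl3-2 at 22 or 28 °C, pSUC2-BRL3 at 28 °C or BRL3ox at 28 °C (log2 -2.34 to -1.68, adjusted p = 0.0578 to 0.185). With the replicate number as a block IAA6 kept its call (log2 -3.06, adjusted p = 0.0393) and IAA19 was not called (log2 -2.21, adjusted p = 0.0659). Over all the alternatives run, the adjusted p of IAA19 lay between 0.000655 with DESeq2 and 0.185 without replicate 1 of Col-0 at 22 °C, and that of IAA6 between 6.28e-05 with DESeq2 and 0.122 without replicate 1 of Col-0 at 28 °C, edgeR's quasi-likelihood test being used in all but DESeq2. Without the doubted libraries, or with replicate 2 of pSUC2-BRL3 at 28 °C left out in place of replicate 1, 12 (14.8% of all genes in the first of these fits) and 11 genes were called in this interaction, and both IAA6 and IAA19 were called in each.

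For brl3-2 the interaction with Col-0 called 0 genes, where 0.878% of all genes were, and for BRL3ox 0, where 2.58% were. edgeR's test gave 5 and 9 genes an unadjusted p below 0.05 (16.7% and 23.6% of all genes), and DESeq2 called 2 and 3 (4.89% and 8.83%). Without the doubted libraries 4 (13.8% of all genes) and 2 (6.98%) were called. The median difference in log2 response over the 36 genes was 0.13 for brl3-2, -0.20 for BRL3ox and -0.30 for pSUC2-BRL3, beside 0.05, 0.02 and 0.04 over all genes. Rises seen in a single genotype, such as those of IAA1, IAA3, IAA34, AFB1 and ARF19, were therefore not shown to differ between genotypes.

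The other genes of the pathway were counted from lists written for comparison. Over the 4 genotypes 18.3% to 25.8% of all genes tested were called higher with warmth, and 19.3% to 23.3% lower. Of the 18 repressing and unclassified ARFs 10 were tested, and 5 were called higher and 1 lower with warmth in Col-0, 4 and 1 in brl3-2, and 4 and 0 in both pSUC2-BRL3 and BRL3ox, with medians of 0.25, 0.42, 0.41 and 0.33. Another list held 15 genes: for TOPLESS-type corepressors, for the SCF ubiquitin ligase that carries the receptors and its regulators, and for the receptor AFB4. Of these Col-0 had 5 called higher and 0 lower, BRL3ox 3 and 1, brl3-2 6 and 1, and pSUC2-BRL3 3 and 0. The 3 of 15 called higher in each transgenic line are near the share of all genes. The 5 in Col-0 and 6 in brl3-2 lie above it, a difference that was not tested. Of 8 genes on the route from temperature to auxin, Col-0 and brl3-2 each had 4 called higher and 2 lower, BRL3ox 3 and 4, and pSUC2-BRL3 3 and 3. YUC8 (AT4G28720), an auxin biosynthesis gene, rose in all 4 genotypes, by log2 4.02 in Col-0, 3.15 in brl3-2, 1.74 in pSUC2-BRL3 and 2.78 in BRL3ox, with adjusted p from 5.35e-05 to 0.00344. In pSUC2-BRL3 at 22 °C YUC8 was higher than in Col-0 (log2 1.69, SE 0.42, adjusted p = 0.0288). Its warmth response differed from that of Col-0 by -2.27 without passing the threshold (adjusted p = 0.0568). YUC8 was picked out after its values were seen.

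IAA2 and IAA7, which lie close together in the genome, both rose with warmth in Col-0 and brl3-2. They form 1 of 3 pairs of Aux/IAA genes within 20000 bases of each other: IAA3 and IAA17 on chromosome 1 with 6388 bases between them, IAA2 and IAA7 on chromosome 3 with 12510, and IAA14 and IAA1 on chromosome 4 with 10732, each pair transcribed in opposite directions. IAA3 rose in Col-0 (log2 0.61) while IAA17 did not pass there (log2 -0.45) and fell in pSUC2-BRL3, and IAA14 rose in Col-0 (log2 0.89) while IAA1 did not pass (log2 0.29).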

How the data were processed

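RNA-seq was made from hypocotyls in 16 libraries with a stranded mRNA kit, per the labels' protocols. The values are raw read counts per gene as the authors deposited them. Per the submitters' processing notes the tools were FastQC 0.11.2, Trimmomatic 0.38, HISAT2 2.1, featureCounts 1.6.2 and edgeR 3.34.1 with the TAIR10 genome. For the counting, neither annotation nor strand setting is known here. The 1 line of the count table without a gene name was left out (0.00132% to 0.00463% of counts), as were no columns (0 unused).

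Genes were kept by edgeR's filter (minimum count 10, minimum total 15), which left 20505. One model with a mean per group was fitted to all 16 libraries (edgeR 4.0.16 quasi-likelihood, limma 3.58.1, TMM scaling, R 4.3.3, 8 residual degrees of freedom), and 16 two-sided comparisons were each adjusted by Benjamini-Hochberg over all genes tested, with a threshold of 0.05. The SE is the size of the log2 change divided by the square root of the F statistic. A level is CPM on TMM-scaled library sizes, and depth limits the precision of the lowest genes. TMM and the size factors of DESeq2 both assume that most genes do not change, which was not tested. Genes were put in order of level by CPM per kb of exon in TAIR10.1. Sequences were read from the RefSeq TAIR10.1 genome with Python 3.11.15, and figures drawn with matplotlib 3.10.9.

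Values in every library are given for genes called with warmth in all 4 genotypes, for up to 4 called genes with the largest changes in each family and genotype, and for the genes called between lines or in an interaction (the 8 with the largest changes where there were more). The genes followed are listed by locus code and no expression value enters that list, but these families and the other gene lists were picked with earlier results of these data known. Alternatives were DESeq2 1.42.0, its size factors in edgeR, no filter, the replicate number as a block, leaving out each library, and leaving out the doubted libraries.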

Additional observations from a re-analysis of the deposited data

Results flagged for a closer look

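IAA6 and IAA19 are listed because the test of the difference itself found a smaller response to warmth in pSUC2-BRL3 than in Col-0. The difference in log2 change (edgeR's interaction test) was -3.06 for IAA6 (SE 0.56, adjusted p = 0.0253) and -2.21 for IAA19 (SE 0.47, adjusted p = 0.0424). With the replicate number as a block the IAA6 difference was still called (adjusted p = 0.0393) and that of IAA19 was not (adjusted p = 0.0659). Neither call stood in every fit that left out 1 library. In those fits the difference ran from -3.24 to -2.86 for IAA6 and from -2.60 to -1.68 for IAA19. The levels behind these values are given in the report. In brl3-2 and BRL3ox the IAA6 change (log2 1.61 and 1.57) was also below that of Col-0 (log2 3.24), without a call. The same held for IAA19, at log2 0.72 and 1.17 beside 1.87. The warmth response of pSUC2-BRL3 was not tested against that of brl3-2. No group held enough libraries for a search for single outlying values.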

How the results depend on the processing

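Counts below are of the 36 tested genes. With DESeq2 in place of edgeR, 4 and 5 genes were called in brl3-2 against Col-0 at 22 and 28 °C, 3 in pSUC2-BRL3 and 2 in BRL3ox against Col-0 at 28 °C, 3 and 2 in pSUC2-BRL3 against brl3-2 at 22 and 28 °C, and 2, 8 and 3 in the interactions of brl3-2, pSUC2-BRL3 and BRL3ox, beside 6.3%, 7.24%, 3.35%, 5.76%, 4.7%, 5.18%, 4.89%, 6.14% and 8.83% of all genes in the same order. With no filter, 1 was called in brl3-2 against Col-0 at each temperature and 1 in the BRL3ox interaction, beside 1.42%, 3.11% and 1.94% of the 26196 genes with any count. Without both doubted libraries, or with the other pSUC2-BRL3 library at 28 °C left out in place of the doubted one (both chosen after seeing the data), the counts against Col-0 were 7 and 7 for brl3-2 at 22 °C, 9 and 9 at 28 °C, 16 and 16 for pSUC2-BRL3 at 22 °C, 2 and 4 at 28 °C, and 8 and 8 for BRL3ox at 28 °C. Against brl3-2 they were 9 and 9 at 22 °C and 3 and 5 at 28 °C, and in the interactions 4 and 4, 12 and 11, and 2 and 3. With the other library left out the shares of all genes were, in this order, 16.9%, 14.4%, 32.3%, 10.5%, 17.2%, 18.2%, 13.1%, 13.8%, 16.1% and 7.13%. Leaving out 1 library at a time gave 14 to 25 warmth calls in Col-0, 8 to 21 in brl3-2, 7 to 16 in pSUC2-BRL3, 5 to 20 in BRL3ox and 23 to 29 over the mean of the 4, beside 29.7% to 56.9%, 34.7% to 59.8%, 23.2% to 52.2%, 23.3% to 45.9% and 65.3% to 75.2% of all genes. Against Col-0 it gave 0 to 7 and 0 to 6 for brl3-2 at 22 and 28 °C, 0 to 14 and 0 to 4 for pSUC2-BRL3, and 2 to 20 and 0 to 5 for BRL3ox, beside 0% to 12.4%, 0.21% to 10.3%, 0.346% to 28.1%, 0.0683% to 5.16%, 4.35% to 51.6% and 0.156% to 11.3% of all genes. Against brl3-2 it gave 0 to 7 and 0 to 4, and in the interactions 0 to 4, 0 to 12 and 0 to 13, beside 0.00488% to 13.7%, 0.00488% to 9.05%, 0% to 9.87%, 0.0683% to 14.0% and 0.0927% to 36.2% of all genes. In 12 of the 16 comparisons the highest count came without either BRL3ox library at 22 °C. In the 4 that use that group it came without replicate 1, when the doubted replicate 2 alone stood for the group: without replicate 1 and without replicate 2 the counts were 20 and 10 for warmth in BRL3ox, 29 and 27 over the mean of the 4, 20 and 7 against Col-0 at 22 °C, and 13 and 1 in the interaction. The cause of these shifts was not tested.

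Of the 105 calls on single genes, 51 stood in every fit leaving out 1 library, none changed sign in any alternative run, and 0 were lost with DESeq2 or with its size factors in edgeR, 5 with no filter and 9 with the replicate block. The correlation of same-numbered deviations ran from -0.387 to 0.318 over 28 pairs of groups, 10 of them over 0.1, so the numbers were not taken to pair all samples. Among the 4 groups at 28 °C it was positive in all 6 pairs (0.0944 to 0.318, 5 over 0.1). With the replicate block 0 genes were called in pSUC2-BRL3 against brl3-2 at 22 °C and 1 in the pSUC2-BRL3 interaction, where IAA19 was lost (adjusted p = 0.0659).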
